A study of Homo sapiens with 6 samples.

Results

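Human pluripotent cells can be held in a naive state, which resembles the epiblast before implantation, or in a primed state, which resembles the epiblast after it. Conventional human embryonic stem cell lines are kept in the primed state, in which naive factors are quiet and exit genes are on. The 10 genes described here were listed by symbol. KLF4, TFCP2L1, ESRRB, DPPA3 and DPPA2 stand for the naive side, and OTX2, SFRP2, USP44, FOXD3 and JARID2 for the primed or exit side. All 10 were found among the 16199 rows of the count table.

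The counts come from H1, a widely used human embryonic stem cell line, in which CRISPR-Cas9 was used to place the S1344L substitution in Dicer, the RNase that cuts microRNA precursors. The 3 genotypes were Dicer-S1344L homozygous (pm/pm), Dicer-S1344L hemizygous (pm/fs in the protocol, which does not spell out fs) and wild-type, with 2 libraries each. Cells of every genotype had been without doxycycline for 10 days and received 150 mJ/cm2 of 254 nm light on 2 occasions. RNA was then recovered with an antibody against Ago2, the protein that carries microRNAs to their targets (iCLIP). How many clones stood behind a genotype, which construct responds to doxycycline and whether the 2 libraries came from separate cultures is not given in the sources used here, so p-values measure the spread between libraries, which may be technical. A count here can follow the amount of a transcript or its contact with Ago2, and fewer cells with a transcript and less RNA per cell cannot be told apart.

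Libraries held 38.2 M to 52.9 M counts. The 10 core pluripotency genes on the marker list, among them POU5F1, SOX2, NANOG and LIN28A, were all measured. Their summed level was 9015 to 9778 CPM (counts per M library counts, scaled with TMM factors) in homozygous, 9388 to 9828 in hemizygous and 8608 to 8748 in wild-type libraries. PODXL and LIN28A were the highest of the 10 in every library, and POU5F1, at 84.4 to 129 CPM, was the lowest. Of the lineage markers, 6 of 11 neuroectoderm genes (PAX6 and SOX1 among them), 8 of 10 mesendoderm genes (TBXT, EOMES and SOX17 among them) and 8 of 10 trophoblast and amnion genes (GATA3 and CDX2 among them) were not listed in the table. The table's rows total at least 132 reads each, and genes that are not listed were not analysed here.

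No difference between Dicer genotypes was detected for any of the 10 genes. In each of the 4 comparisons (either mutant or both against wild-type, and homozygous against hemizygous), edgeR's quasi-likelihood test called 0 of 10 members at a Benjamini-Hochberg adjusted p under 0.05, and 0% of all 16199 rows. DESeq2 and limma-voom also called 0 members. Without a term for the replicate number, no member had an unadjusted p under 0.05, against 2.69% of all rows in homozygous against wild-type, 0.870% in hemizygous against wild-type, 1.94% in both mutants against wild-type and 0.765% in homozygous against hemizygous. The lowest unadjusted p of a member was 0.105, for DPPA2 in homozygous against wild-type libraries. With the replicate number as a block, DPPA2 had an unadjusted p of 0.0375 in homozygous against wild-type and 0.0371 in homozygous against hemizygous libraries (adjusted p = 0.405 and 0.573 by edgeR), and 12% and 8.20% of all rows were then under 0.05. No other member was under 0.05 with the block, and 0 members were called. Two-sided 95% confidence intervals of the fold changes come from the fit without the replicate number, so their spread includes any difference between replicate numbers. In that fit, the intervals show what size of change these libraries leave possible. They are narrow for DPPA2 and USP44 and reach a doubling or a halving only for ESRRB, DPPA3 and KLF4.

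**Figure D1:**
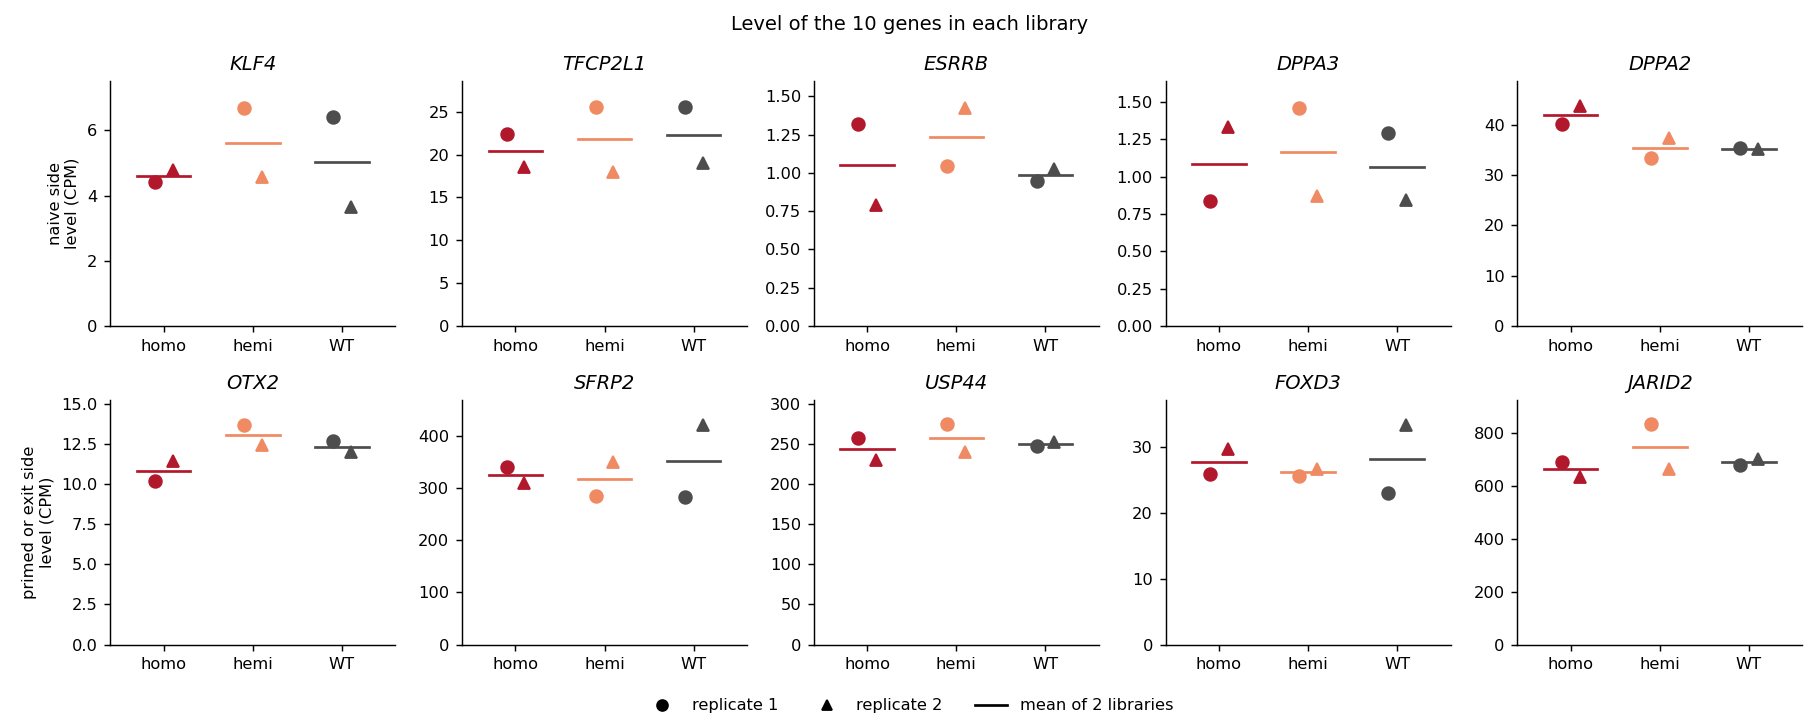
Level of each gene in CPM (linear axis from 0) in the 2 libraries of homozygous, hemizygous and wild-type cells. Circles are replicate 1, triangles replicate 2 and bars the mean of the 2 libraries. DPPA2 is highest and OTX2 lowest in both homozygous libraries, and KLF4, TFCP2L1 and DPPA3 split by replicate number in hemizygous and wild-type cells.

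The sequences upstream of 4 members are shown because the levels of KLF4 and TFCP2L1 correlated over the libraries, while DPPA2 and OTX2 were the members whose homozygous libraries stood apart from all others, as described after them. Each is the 250 bases before the gene's annotated start, 5′ to 3′ on the gene's strand, from RefSeq (GRCh38.p14), which held such a window for 9 of 10 members (not USP44). Capitals mark the GC box GGGCGG and the box CACCC, searched on both strands.
KLF4, chr9:107489770-107490019, minus strand: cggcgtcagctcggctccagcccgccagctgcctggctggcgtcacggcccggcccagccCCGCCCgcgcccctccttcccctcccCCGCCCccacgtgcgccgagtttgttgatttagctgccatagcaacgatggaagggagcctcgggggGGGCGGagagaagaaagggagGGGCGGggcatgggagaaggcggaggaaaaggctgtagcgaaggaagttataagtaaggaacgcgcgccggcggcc
TFCP2L1, chr2:121285203-121285452, minus strand: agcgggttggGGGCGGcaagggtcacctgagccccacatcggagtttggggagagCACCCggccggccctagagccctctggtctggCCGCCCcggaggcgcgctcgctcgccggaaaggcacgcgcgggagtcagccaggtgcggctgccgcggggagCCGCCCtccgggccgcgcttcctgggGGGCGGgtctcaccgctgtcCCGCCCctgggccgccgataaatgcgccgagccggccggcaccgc
DPPA2, chr3:109316518-109316767, minus strand: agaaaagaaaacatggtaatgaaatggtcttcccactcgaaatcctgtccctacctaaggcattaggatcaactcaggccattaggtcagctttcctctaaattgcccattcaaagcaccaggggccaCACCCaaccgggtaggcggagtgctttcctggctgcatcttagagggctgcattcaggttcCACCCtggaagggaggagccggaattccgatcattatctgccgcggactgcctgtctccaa
OTX2, chr14:56810480-56810729, minus strand: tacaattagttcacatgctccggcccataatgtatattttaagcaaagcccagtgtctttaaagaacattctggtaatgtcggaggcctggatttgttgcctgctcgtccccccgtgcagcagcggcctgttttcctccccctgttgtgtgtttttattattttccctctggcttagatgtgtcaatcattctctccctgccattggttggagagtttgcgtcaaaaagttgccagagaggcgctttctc
KLF4 holds 4 GC boxes and TFCP2L1 5, with GC contents of 69.2% and 76.8% against a median of 58.0% over 35116 windows. TFCP2L1 holds 1 CACCC box, DPPA2 2 and KLF4 and this OTX2 window none. A GC box occurs in 42.6% and CACCC in 54.7% of all windows. TATAAA, in 10.7% of windows, and the octamer ATGCAAAT, in 1.63%, were in none of the 4. A second OTX2 start has a window with 5 CACCC boxes. KLF4 correlated with TFCP2L1 at a Pearson r of 0.80, but more closely with DPPA3 (0.83) and, inversely, with SFRP2 (-0.94). The DPPA3 window, not shown, holds no GC box and has a GC content of 35.6%. That of SFRP2, also not shown, holds 1 GC box and has 57.6%. A match describes letters only.

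KLF4 is also a described target of miR-145 in human embryonic stem cells, which is why that microRNA is shown, from RefSeq, with its seed (bases 2 to 8) in capitals.
hsa-miR-145-5p, chr5:149430661-149430683, plus strand: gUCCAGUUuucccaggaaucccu
No target site was examined, and no difference in KLF4 between Dicer genotypes was detected.

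KLF4 (chr9:107484852-107489769, GRCh38.p14) is a zinc finger factor of the reprogramming set. It stood at 4.41 and 4.78 CPM in homozygous, 6.68 and 4.55 in hemizygous and 6.40 and 3.66 in wild-type libraries (replicate 1 and 2 in each case). The homozygous pair lay inside the range of the wild-type pair, so the groups overlapped. The log2 fold change was -0.14 (SE 0.34, 95% interval -0.94 to 0.67) in homozygous and 0.15 (SE 0.33, interval -0.65 to 0.95) in hemizygous against wild-type libraries, with an adjusted p of 1.00 by edgeR in both. Between libraries of the same replicate number, homozygous minus wild-type was -0.53 for replicate 1 and 0.38 for replicate 2 on the log2 scale. The sign therefore depended on which wild-type library was used. RefSeq names 1 pseudogene copy of KLF4, which is not a row of the table.

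TFCP2L1 (chr2:121216587-121285202) is a transcription factor that acts downstream of LIF and STAT3 in mouse stem cells. Its level was 22.4 and 18.5 CPM in homozygous, 25.6 and 18.0 in hemizygous and 25.6 and 19.0 in wild-type libraries. Replicate 1 was the higher library in every genotype, and the 3 genotypes overlapped. It was the only member higher in replicate 1 in all 3 genotypes, which held for 29.9% of all rows. The log2 fold change was -0.13 (SE 0.24, interval -0.69 to 0.44) in homozygous and -0.03 (SE 0.23, interval -0.60 to 0.53) in hemizygous against wild-type libraries.

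ESRRB (chr14:76310777-76501837), an orphan nuclear receptor that sustains the naive state in mouse, was among the rows near 1 CPM. It had 1.32 and 0.788 CPM in homozygous, 1.04 and 1.42 in hemizygous and 0.945 and 1.02 in wild-type libraries. These rest on 60 and 32 reads in homozygous, 40 and 75 in hemizygous and 49 and 40 in wild-type libraries. The exact Poisson 95% interval, which covers counting error only, ran from 21.9 to 45.2 reads around the 32 reads of homozygous replicate 2 and from 59.0 to 94.0 around the 75 reads of hemizygous replicate 2. Both hemizygous libraries were above both wild-type libraries. The nearest of these, hemizygous replicate 1 and wild-type replicate 2, had 40 reads each, with the same Poisson interval of 28.6 to 54.5 reads. The log2 fold change was 0.33 (SE 0.36, interval -0.54 to 1.20), with an adjusted p of 1.00 by edgeR. Leaving out 1 library at a time gave 0.086 to 0.54. It was the only member whose libraries did not overlap in this comparison (1 of 10, against 17.3% of all rows), and the homozygous libraries lay on both sides of wild-type.

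DPPA3 (chr12:7711433-7717559), also called STELLA, guards DNA methylation marks in the mouse zygote and marks naive human cells. It had 38 and 54 reads in homozygous, 56 and 46 in hemizygous and 67 and 33 in wild-type libraries. In CPM these were 0.837 and 1.33 in homozygous, 1.46 and 0.873 in hemizygous and 1.29 and 0.844 in wild-type libraries, and the 3 genotypes overlapped. The 95% interval of the fold change was the widest of the 10 genes, 0.499 to 2.03 in homozygous and 0.537 to 2.16 in hemizygous against wild-type libraries. RefSeq names 12 pseudogene copies of DPPA3, none of them a row of the table, so reads of near-identical copies are uncertain here.

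DPPA2 (chr3:109293788-109316517), a SAP domain protein that works with DPPA4 at promoters poised between activation and repression in mouse stem cells, had its highest levels in homozygous cells. It stood at 40.1 and 43.8 CPM in homozygous, 33.4 and 37.4 in hemizygous and 35.4 and 35.2 in wild-type libraries. Both homozygous libraries were above the other 4, a pattern that 5.62% of all rows shared, while hemizygous and wild-type overlapped. The means were 42.0 ± 2.58 in homozygous, 35.4 ± 2.82 in hemizygous and 35.3 ± 0.167 CPM in wild-type libraries (SD, n = 2 each). The log2 fold change was 0.25 (SE 0.13, interval -0.07 to 0.57) in homozygous against wild-type and 0.25 (SE 0.13, interval -0.07 to 0.56) in homozygous against hemizygous libraries, with adjusted p of 1.00 and 0.999 by edgeR. Within replicate numbers the homozygous minus wild-type difference was 0.18 and 0.31, and the homozygous minus hemizygous difference 0.27 and 0.23. RefSeq names 4 pseudogene copies of DPPA2, none of them a row. Its partner DPPA4 stood at 1422 and 1415 CPM in homozygous, 1424 and 1422 in hemizygous and 1479 and 1287 in wild-type libraries, with the mutant values inside the wild-type range.

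On the primed side, OTX2 (chr14:56799905-56810479) is a homeodomain factor that directs OCT4 to new enhancers when mouse cells leave the naive state. It stood at 10.2 and 11.4 CPM in homozygous, 13.7 and 12.4 in hemizygous and 12.7 and 11.998 in wild-type libraries. Both homozygous libraries were below the other 4, as were 5.49% of all rows, the reverse of DPPA2. The log2 fold change was -0.19 (SE 0.16, interval -0.58 to 0.21) against wild-type and -0.27 (SE 0.16, interval -0.67 to 0.12) against hemizygous libraries, with adjusted p of 1.00 and 0.999 by edgeR. Within replicate numbers homozygous minus wild-type was -0.31 and -0.07. RefSeq names 2 pseudogene copies of OTX2, neither of them a row. DPPA2 and OTX2 were the only members whose homozygous libraries stood apart from wild-type (2 of 10, against 27.9% of all rows) or from hemizygous libraries (2 of 10, against 21.4%), so neither count exceeded the share among all rows.

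SFRP2 (chr4:153780591-153789083) is a secreted Wnt antagonist. It stood at 340 and 310 CPM in homozygous, 285 and 350 in hemizygous and 282 and 420 in wild-type libraries. The wild-type pair spanned all 4 mutant values. The log2 fold change was -0.11 (SE 0.21, interval -0.62 to 0.40) in homozygous and -0.14 (SE 0.21, interval -0.66 to 0.37) in hemizygous against wild-type libraries.

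FOXD3 (chr1:63322567-63325128), a forkhead factor needed for the exit from naive pluripotency in mouse and later for neural crest, was at 25.9 and 29.8 CPM in homozygous, 25.7 and 26.8 in hemizygous and 23.1 and 33.4 in wild-type libraries. As with SFRP2, the wild-type pair enclosed every mutant library. Its log2 fold change was -0.02 (SE 0.20, interval -0.50 to 0.46) in homozygous and -0.11 (SE 0.20, interval -0.58 to 0.37) in hemizygous against wild-type libraries. FOXD3 overlaps FOXD3-AS1 in RefSeq, and the use of strand in the counting is not given in the sources used here, so reads of the pair cannot be told apart with certainty. FOXD3-AS1 was counted at 85.2 and 112 CPM in homozygous, 71.4 and 97.3 in hemizygous and 76.7 and 93.1 in wild-type libraries.

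USP44 (chr12:95516560-95551681) removes ubiquitin from histone H2B and acts in the anaphase checkpoint. It was at 257 and 230 CPM in homozygous, 275 and 240 in hemizygous and 247 and 252 in wild-type libraries, the narrowest spread of the 10 genes, with 1.20-fold between the highest and the lowest library. The fold against wild-type was 0.976 (interval 0.778 to 1.22) in homozygous and 1.03 (interval 0.823 to 1.29) in hemizygous libraries.

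JARID2 (chr6:15246069-15522042), which helps to recruit Polycomb repressive complex 2, was at 693 and 633 CPM in homozygous, 834 and 665 in hemizygous and 681 and 702 in wild-type libraries. Hemizygous replicate 1 was the highest library, and hemizygous replicate 2 lay below both wild-type libraries. The fold against wild-type was 0.959 (interval 0.747 to 1.23) in homozygous and 1.08 (interval 0.844 to 1.39) in hemizygous libraries. JARID2 overlaps JARID2-AS1 and 2 small RNA pseudogenes in RefSeq, none of them rows of the table.

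**Figure D2:**
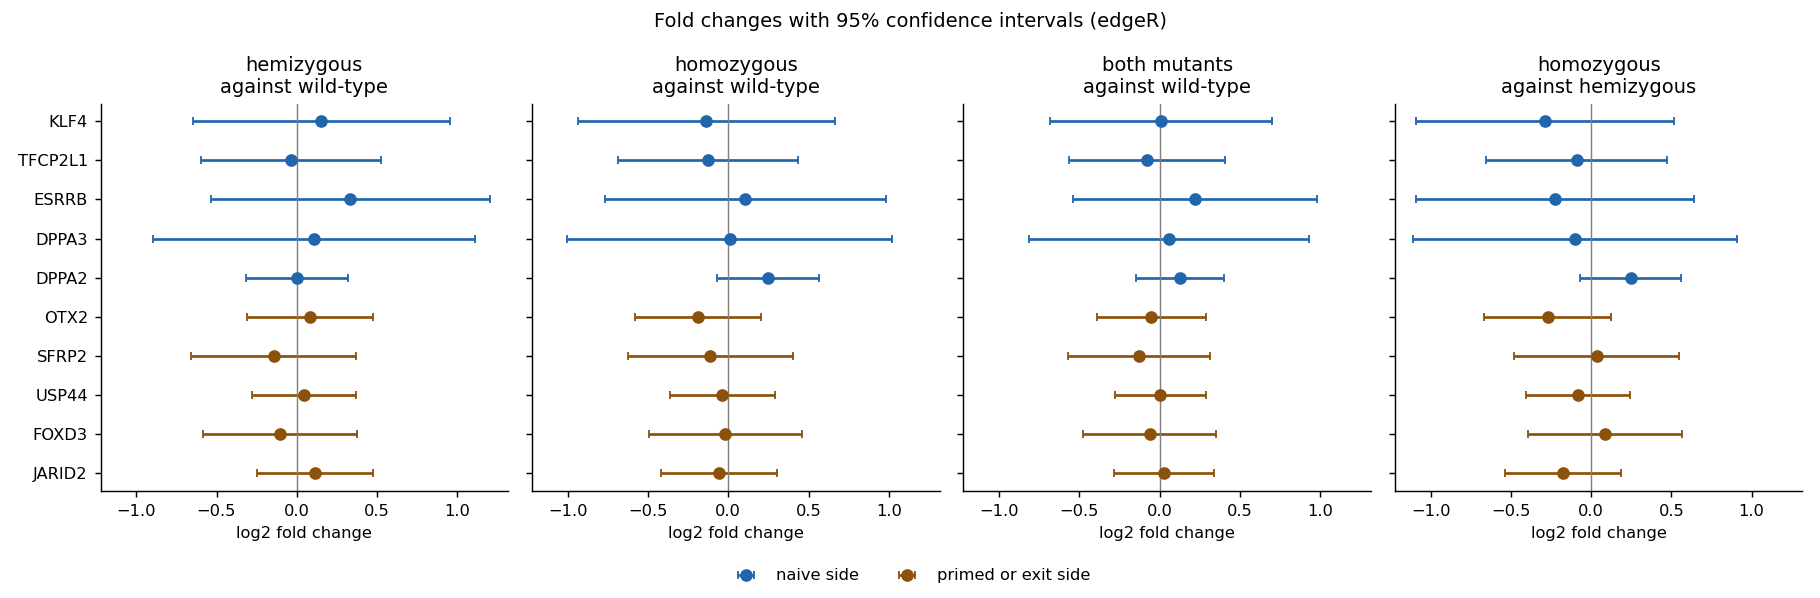
Log2 fold changes (points) with 95% confidence intervals (bars) of the 10 genes in the 4 comparisons, from edgeR's fit to all 6 libraries. The naive side is in blue and the primed or exit side in brown, and every interval includes 0.

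The members of each side did not share a direction in every comparison. In hemizygous against wild-type libraries, 4 of 5 naive members and 3 of 5 primed members had a log2 fold change above 0 (49.1% of all rows), with medians of 0.11 and 0.05 against -0.003 for all rows. In homozygous against wild-type libraries, 3 of 5 naive members and 0 of 5 primed members were above 0 (49.3% of all rows), with medians of 0.01 and -0.06 against -0.003. All 5 primed members were thus below 0, by 0.02 (FOXD3) to 0.19 (OTX2) on the log2 scale, and 0 of the 5 passed the test. For both mutants against wild-type, 4 naive and 2 primed members were above 0 (48.2% of all rows), and libraries of the groups did not overlap for 0 of 10 (8.87% of all rows). In homozygous against hemizygous libraries 1 naive member, DPPA2, and 2 primed members were above 0 (49.9% of all rows). The 4 comparisons share libraries, so their counts are not independent.

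A naive minus primed index, the mean log2 CPM of the 5 naive members less that of the 5 primed members, was -4.33 and -4.34 in homozygous, -4.25 and -4.42 in hemizygous and -4.16 and -4.72 in wild-type libraries. The wild-type libraries enclosed all 4 mutant libraries. The genotype means were -4.34 ± 0.00525 in homozygous, -4.33 ± 0.122 in hemizygous and -4.44 ± 0.398 in wild-type libraries (SD, n = 2 each), so they differed by less than the wild-type spread. No test was made on the index.

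Differences between the 2 libraries of a genotype were as wide as those between genotypes for several of these genes. Replicate 1 minus replicate 2 of KLF4 was -0.12 in homozygous, 0.55 in hemizygous and 0.80 in wild-type libraries on the log2 scale. DPPA3 had the same signs, with -0.64 in homozygous, 0.71 in hemizygous and 0.59 in wild-type libraries. SFRP2 ran the other way, at 0.14 in homozygous, -0.30 in hemizygous and -0.58 in wild-type libraries. ESRRB differed by 0.72 in homozygous, -0.43 in hemizygous and -0.11 in wild-type libraries. Between genotypes, the widest difference within a replicate number was that of ESRRB in replicate 2, -0.82 for homozygous minus hemizygous. FOXD3 was lower in replicate 1 of every genotype, at -0.20 in homozygous, -0.06 in hemizygous and -0.53 in wild-type libraries. The sign was shared by all 3 genotypes for 2 members, TFCP2L1 and FOXD3, against 58.2% of all rows. As a description over 6 libraries, which share the replicate structure, KLF4 correlated with DPPA3 at a Pearson r of 0.83, with TFCP2L1 at 0.80 and with SFRP2 at -0.94, and JARID2 with USP44 at 0.94. Summed fibroblast and stromal markers (8 of 15 measured, with COL3A1, LUM, DCN and TWIST1 among the genes not listed) moved with replicate number too, at 337 and 325 CPM in homozygous, 561 and 375 in hemizygous and 503 and 377 in wild-type libraries. Most of that sum was COL1A2 and COL1A1, the latter at 190 and 179 CPM in homozygous, 324 and 213 in hemizygous and 285 and 184 in wild-type libraries. COL5A1 ran the other way, at -0.29 in homozygous, -0.06 in hemizygous and -0.62 in wild-type libraries on the log2 scale. COL6A3 and PDGFRB were lower in replicate 1 of homozygous cells only. The part of these markers in the differences of KLF4, DPPA3 and SFRP2 was not tested.

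**Figure D3:**
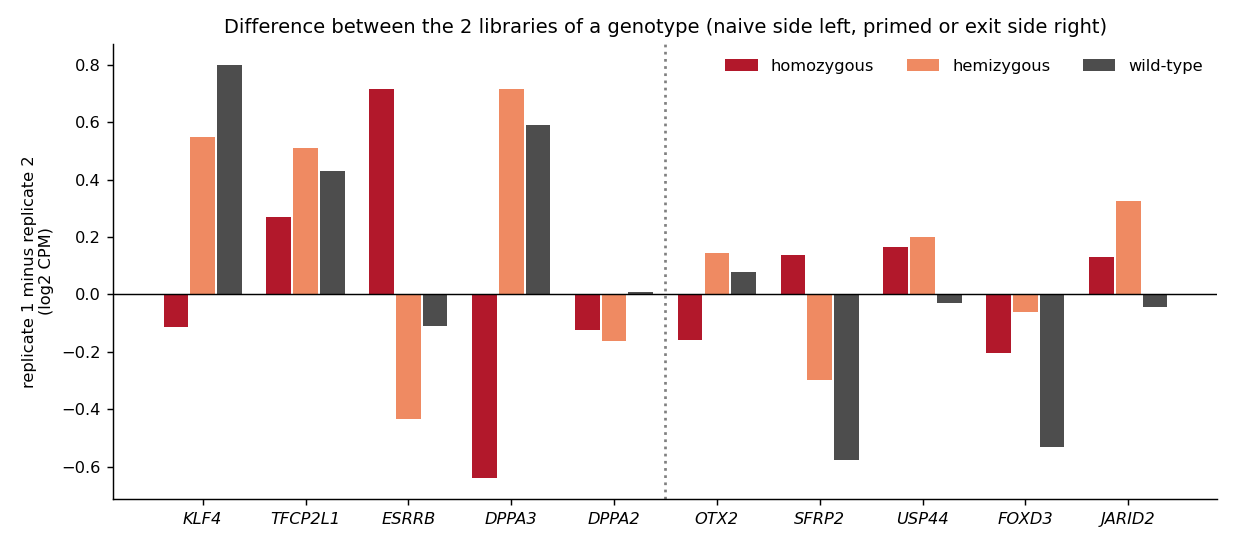
Replicate 1 minus replicate 2 in log2 CPM for each gene in homozygous, hemizygous and wild-type cells. Bars of KLF4, TFCP2L1 and DPPA3 are positive and those of SFRP2 and FOXD3 negative in hemizygous and wild-type cells, while the homozygous bars of KLF4, DPPA3 and SFRP2 have the other sign.

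Further genes of the naive state were then read from a list of 22, of which 11 were measured. Those not listed in the table include KLF17 and DNMT3L, defining genes of the human naive state. None was called in any comparison by edgeR. The median log2 fold change was -0.07 in homozygous against wild-type libraries, where 4 of 11 were above 0 (49.3% of all rows). It was 0.07 in hemizygous against wild-type libraries, where 8 of 11 were (49.1% of all rows). DPPA5, an RNA-binding protein of early embryos, had the smallest unadjusted p of the list (0.0258 in homozygous against wild-type). It stood at 12.3 and 22.4 CPM in homozygous, 6.60 and 15.3 in hemizygous and 3.24 and 8.03 in wild-type libraries. Homozygous libraries were all above wild-type (27.9% of all rows did not overlap in this comparison), hemizygous overlapped with it, and replicate 2 was the higher library in each genotype. The log2 fold change was 1.63 (SE 0.57) in homozygous and 0.97 (SE 0.56) in hemizygous against wild-type libraries, with adjusted p of 1.00 by edgeR. Leaving out 1 library moved the homozygous value to between 1.12 (without wild-type replicate 1) and 2.43 (without wild-type replicate 2), and the hemizygous value to between 0.24 (without hemizygous replicate 2) and 1.77 (without wild-type replicate 2). Within replicate numbers the homozygous difference was 1.91 and 1.47 and the hemizygous difference 1.02 and 0.92. With the replicate number as a block, the adjusted p of DPPA5 was 0.120 in homozygous against wild-type, 0.568 in hemizygous against wild-type, 0.0897 in both mutants against wild-type and 0.573 in homozygous against hemizygous libraries.

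TBX3, a T-box factor of the naive network, was at 10.05 and 10.5 CPM in homozygous, 13.0 and 4.84 in hemizygous and 9.93 and 2.69 in wild-type libraries. Homozygous against wild-type gave 0.70 (SE 0.65) on the log2 scale. TFAP2C, which opens naive enhancers, was at 38.1 and 38.8 CPM in homozygous, 35.2 and 39.1 in hemizygous and 40.1 and 42.0 in wild-type libraries, and hemizygous against wild-type gave -0.14 (SE 0.13) on the log2 scale. PRDM14, a repressor of differentiation genes, had -0.24 (SE 0.15) in homozygous against wild-type libraries. None of these passed the test.

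Of 23 further primed genes, 21 were measured, and 0 were called in any comparison by edgeR. The list was chosen with earlier results of these data known, so its shares are a description and no independent support. In homozygous against wild-type libraries 17 of 21 were below 0, while 49.3% of all rows were above 0. The median log2 fold change was -0.22 against -0.003 for all rows. Of the 21 genes, 4 had an unadjusted p under 0.05 by edgeR, all below 0, against 2.69% of all rows. These were SFRP1, a Wnt antagonist related to SFRP2, DUSP6, a phosphatase that damps ERK signalling, and ETV4 and ETV5, ETS factors induced by FGF and ERK. SFRP1 stood at 38.3 and 45.0 CPM in homozygous, 61.8 and 68.7 in hemizygous and 59.8 and 113 in wild-type libraries, with a homozygous log2 fold change of -1.05 (SE 0.29). DUSP6 stood at 17.2 and 11.7 CPM in homozygous, 27.3 and 15.8 in hemizygous and 29.9 and 27.0 in wild-type libraries, with -0.98 (SE 0.30). Homozygous libraries were below wild-type without overlap in both genes, a comparison in which 27.9% of all rows did not overlap in either direction. Those of SFRP1 were also below both hemizygous libraries, where 21.4% of all rows did not overlap.

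ETV4 was at 155 and 160 CPM in homozygous, 156 and 159 in hemizygous and 191 and 254 in wild-type libraries. All 4 mutant libraries were below both wild-type libraries, a comparison in which 8.87% of all rows did not overlap in either direction. The log2 fold change was -0.50 in each mutant (SE 0.16 in both). ETV5 was at 39.3 and 45.8 CPM in homozygous, 49.9 and 47.3 in hemizygous and 52.5 and 64.7 in wild-type libraries, with -0.46 (SE 0.16) in homozygous and -0.27 (SE 0.16) in hemizygous libraries. The adjusted p by edgeR was 1.00 for all 4 genes in both comparisons. Without wild-type replicate 2 the homozygous values were -0.51 for SFRP1, -0.26 for ETV4 and -0.29 for ETV5. The hemizygous values were then -0.26 for ETV4 and -0.10 for ETV5. Without wild-type replicate 1 the homozygous values were -1.43 for SFRP1, -0.68 for ETV4 and -0.60 for ETV5. The hemizygous values were then -0.68 for ETV4 and -0.41 for ETV5. The homozygous value of DUSP6 was -1.29 without homozygous replicate 1 and -0.73 without homozygous replicate 2. In hemizygous against wild-type libraries the list's median was -0.02, with 12 of 21 below 0. In homozygous against hemizygous libraries it was -0.13, with 16 of 21 below 0. Summed fibroblast and stromal markers were also lower in homozygous libraries (337 and 325 CPM) than in wild-type libraries (503 and 377 CPM). Of those 8 measured, 7 were below 0 in homozygous against wild-type libraries. The exception was PDGFRA, at 1.72 and 1.30 CPM in homozygous and 1.16 and 0.870 in wild-type libraries. Summed neuroectoderm markers (5 of 11 measured) were also lower, at 406 and 393 CPM in homozygous, 539 and 423 in hemizygous and 491 and 446 in wild-type libraries. Most of that sum was NES, at 386 and 371 CPM in homozygous, 515 and 400 in hemizygous and 472 and 429 in wild-type libraries. Of the 5 markers 3 were above 0 in homozygous against wild-type libraries, with a median of 0.08. In that list, FABP7 went the opposite way to NES, at 5.62 and 8.15 CPM in homozygous, 4.22 and 5.81 in hemizygous and 2.99 and 2.99 in wild-type libraries (homozygous unadjusted p = 0.00445 by edgeR). DCX did so too, at 4.01 and 4.65 CPM in homozygous, 5.58 and 5.58 in hemizygous and 3.28 and 3.30 in wild-type libraries (hemizygous unadjusted p = 0.0111 by edgeR). Of the 2 measured mesendoderm markers, KDR stood at 376 and 361 CPM in homozygous, 333 and 393 in hemizygous and 257 and 276 in wild-type libraries. All 4 mutant libraries of KDR were above both wild-type libraries, and mutant and wild-type libraries did not overlap for 8.87% of all rows. Its unadjusted p was 0.0123 in homozygous and 0.0153 in hemizygous against wild-type libraries by edgeR, and it was not called. MIXL1 stood at 2.64 and 2.04 CPM in homozygous, 2.95 and 2.39 in hemizygous and 3.07 and 1.23 in wild-type libraries, which overlap. The part of all these markers in the differences of the primed genes was not tested.

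**Figure D4:**
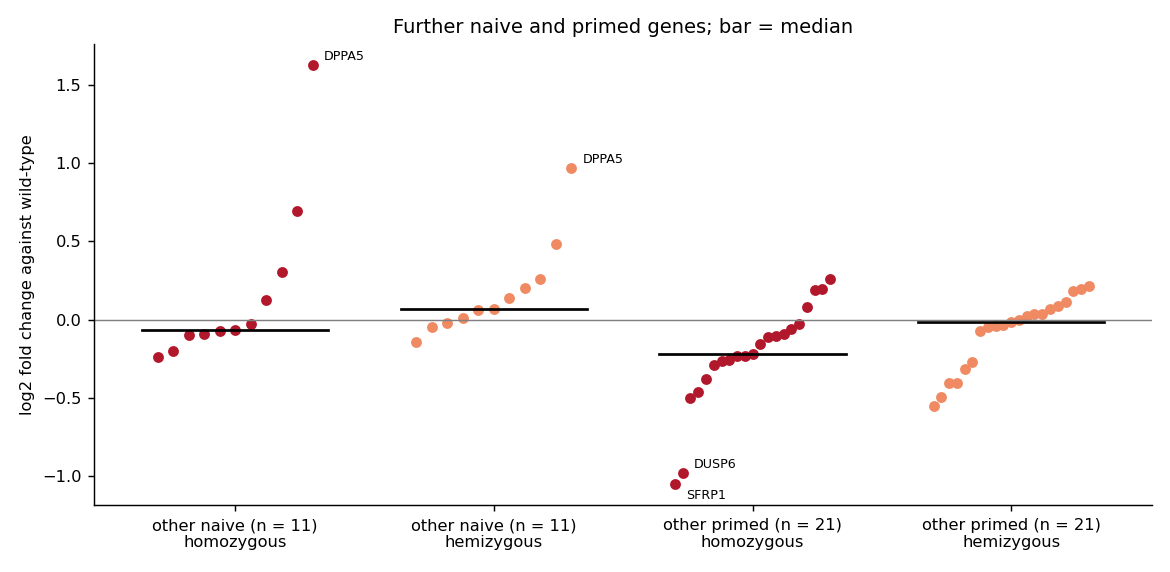
Log2 fold change against wild-type of the measured further naive genes (n = 11) and further primed genes (n = 21) in homozygous and hemizygous cells, sorted within each column. Points are genes and black bars medians, at -0.07 and 0.07 for naive and -0.22 and -0.02 for primed genes. DPPA5 is the highest point in both mutants, and SFRP1 and DUSP6 are the lowest in homozygous cells.

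The complexes and pathways that the members work in gave no called gene either. Of 11 measured Polycomb repressive complex 2 genes, with which JARID2 acts, the median log2 fold change was -0.06 in homozygous against wild-type libraries, where 4 were above 0. LCOR, whose locus encodes an accessory protein of the complex, stood at 37.8 and 34.9 CPM in homozygous, 49.0 and 42.9 in hemizygous and 47.3 and 49.8 in wild-type libraries, and its homozygous log2 fold change was -0.42 (SE 0.14, unadjusted p = 0.0186). SUZ12, a core subunit, had -0.32 (SE 0.16). The largest change of the list in hemizygous against wild-type libraries was that of PHF1, -1.44 (SE 0.61, unadjusted p = 0.0514 by edgeR). PHF1 stood at 2.49 and 6.55 CPM in homozygous, 1.93 and 2.28 in hemizygous and 8.43 and 2.99 in wild-type libraries. EZH2, the methyltransferase, was at 96.2 and 109 CPM in homozygous, 103 and 99.6 in hemizygous and 94.9 and 99.2 in wild-type libraries. Of the secreted Wnt antagonists apart from SFRP2, 5 of 8 were measured and 4 of the 5 were below 0 in homozygous against wild-type libraries, SFRP1 being the lowest. The 9 genes of H2B ubiquitination and USP44 partners had a median of -0.05, with 6 below 0. Of the 10 core pluripotency genes 9 were above 0 in homozygous against wild-type libraries (49.3% of all rows), with a median of 0.19. In hemizygous against wild-type libraries 10 were (49.1% of all rows), with a median of 0.17. None had an unadjusted p under 0.05 by edgeR in either comparison, and both comparisons use the same wild-type libraries. POU5F1 stood at 107 and 129 CPM in homozygous, 84.4 and 128 in hemizygous and 87.9 and 88.0 in wild-type libraries, with a homozygous log2 fold change of 0.42 (SE 0.22). All adjusted p values in these lists were between 0.999 and 1.00 by edgeR.

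The genes whose level followed a member most closely were sought among 11330 or 11331 symbols with a mean of at least 5 CPM, by Pearson r of log2 CPM over 6 libraries. These values, the highest among many genes over few libraries, are a description only. For KLF4 they were NEMF and EDIL3-DT (0.995 in both cases), for TFCP2L1 TIMP4 (1.00) and ARID4A (0.999), for ESRRB MBD5 (0.980) and SH2D5 (0.958), for DPPA3 MX2 (0.991) and LTV1 (0.987), and for DPPA2 ZNF266 (0.989) and TLE7 (0.987). On the primed side they were COPB2 and SERP1 for OTX2 (0.974 in both cases), MAPK8IP1 (0.997) and BCL9L (0.991) for SFRP2, IRS2 (0.997) and GCC1 (0.992) for USP44, CHASERR (0.975) and ITPKC (0.970) for FOXD3, and FOXRED2 (0.992) and GPLD1 (0.987) for JARID2. No member had another member among its 2 closest genes. ESRRB and DPPA3, below 5 CPM, could not be found in this search, and inverse correlations were not ranked.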

How the data were processed

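The authors deposited whole-number read counts per gene with no normalization, for 6 iCLIP libraries of 3 Dicer genotypes. The genome build was hg38, per the submitters' processing notes. For the aligner, counter, annotation, strand setting and handling of molecular identifiers, nothing is given in these sources. Columns were tied to samples by their descriptions, and 0 columns were left unused. The members and gene lists were chosen with earlier results of these data known.

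Counts were scaled with TMM factors, filtered with filterByExpr (all 16199 rows kept) and compared in edgeR 4.0.16 (R 4.3.3) by its quasi-likelihood method, with a mean per genotype over all 6 libraries and Benjamini-Hochberg adjustment over all rows. Standard errors and 95% intervals come from the fold change, its F value and the degrees of freedom of the fit. Log2 CPM used a prior count of 2. The code was tested on simulated data. Every member is named, as are, for each, the 2 rows of highest Pearson r. From each further list, up to 4 genes with the smallest p per comparison could be named. EZH2, DPPA4 and FOXD3-AS1 fall outside that rule and were named after their values were seen. RefSeq (GRCh38.p14) gave positions, overlaps and sequences. Alternatives were RLE and library-size scaling, no filter, 20 counts in 2 libraries, DESeq2 1.42.0, limma-voom (limma 3.58.1), the replicate number as a block, only the genotypes compared, and each library left out. The replicate numbers of 2 libraries per genotype are not stated to mark a shared culture or day, so they were not treated as pairs.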

Additional observations from a re-analysis of the deposited data

How the results depend on the processing

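Under all alternatives run, 0 of the 550 recomputed fold changes of the 10 members were called, and 496 kept their sign. The 54 that did not were of uncalled values, the farthest from 0 being KLF4 (-0.29) and ESRRB (-0.23) in homozygous against hemizygous. Without a filter, with the filter of 20 counts in 2 libraries, RLE scaling, DESeq2 or only the genotypes compared, no member changed sign. With library-size scaling DPPA2 in hemizygous against wild-type was -0.0072 and USP44 in both mutants against wild-type -0.0017. With limma-voom DPPA3 and FOXD3 in homozygous against wild-type were -0.013 and 0.0098, and with the replicate number as a block DPPA2 in hemizygous against wild-type was -0.00061. Leaving out each library moved the log2 fold changes most. In hemizygous against wild-type they ran from -0.18 to 0.62 for KLF4, -0.29 to 0.46 for DPPA3, -0.40 to 0.18 for SFRP2, -0.049 to 0.14 for USP44, -0.048 to 0.27 for JARID2, -0.30 to 0.20 for TFCP2L1, -0.082 to 0.090 for DPPA2, -0.34 to 0.20 for FOXD3, -0.38 to 1.73 for TBX3 and -0.29 to 0.67 for IL6ST, a cytokine receptor subunit. In homozygous against wild-type they ran from -0.32 to 0.43 for ESRRB, -0.25 to 0.28 for FOXD3, -0.31 to 0.11 for TFCP2L1, -0.36 to 0.36 for DPPA3, -0.12 to 0.045 for USP44, -0.13 to 0.0030 for JARID2, -0.47 to 0.34 for KLF4 and -0.36 to 0.22 for SFRP2. In both mutants against wild-type they ran from -0.038 to 0.053 for USP44, -0.049 to 0.10 for JARID2, -0.32 to 0.48 for KLF4, -0.19 to 0.41 for DPPA3, -0.27 to 0.16 for TFCP2L1, -0.38 to 0.20 for SFRP2, -0.30 to 0.24 for FOXD3 and -0.043 to 1.84 for TBX3. In homozygous against hemizygous they ran from -0.47 to 0.31 for DPPA3, -0.11 to 0.19 for SFRP2, -0.32 to 0.19 for TFCP2L1, -0.65 to 0.094 for ESRRB, -0.018 to 0.19 for FOXD3, -0.54 to 0.014 for KLF4, -0.18 to 0.023 for USP44 and -0.87 to 0.10 for IL6ST. The cause was not tested.

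Over all genes, against 0 calls in each comparison, DESeq2 called 7 in hemizygous against wild-type and 10 in each of the other comparisons, and edgeR's fit with a replicate block called 1 in hemizygous against wild-type and 1 in homozygous against hemizygous. Leaving out each library gave 0 to 2 calls in hemizygous against wild-type, 0 to 1 in homozygous against wild-type, 0 to 2 in both mutants against wild-type and 0 to 3 in homozygous against hemizygous. A genotype left with 1 library was assumed to vary like the others. None of these genes was a member. The replicate block changed no member's call, and the shares of rows at an unadjusted p under 0.05 with it were 3.80% in hemizygous against wild-type, 12% in homozygous against wild-type, 7.46% in both mutants against wild-type and 8.20% in homozygous against hemizygous. The replicate 1 minus replicate 2 difference over all genes correlated at a Pearson r of 0.74 between hemizygous and wild-type, 0.48 between homozygous and hemizygous and 0.36 between homozygous and wild-type libraries, but with 2 numbers per genotype this does not establish pairs. The homozygous naive minus primed index was -4.36 with a prior count of 0.5. ESRRB and DPPA3 rest on the fewest reads of the 10 genes.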

Other observations

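The same index over the further genes (11 naive and 21 primed) was -2.79 and -2.77 in homozygous, -2.91 and -2.99 in hemizygous and -3.07 and -3.35 in wild-type libraries, in the order homozygous, hemizygous, wild-type with no overlap. No test was made on it, and its genes were chosen with earlier results of these data known, so the order is a description only. Without DPPA5, a choice made after seeing the data, it was -2.73 and -2.80 in homozygous, -2.75 and -2.98 in hemizygous and -2.84 and -3.26 in wild-type libraries. The hemizygous libraries then overlapped with both the homozygous and the wild-type libraries. The index of the members showed no such order, as its wild-type libraries, at -4.16 and -4.72, enclosed every mutant library.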
